A study of Populus tomentosa with 15 samples.

Results

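The genes described here moved in opposite directions in Populus tomentosa cells carrying an antisense or an overexpression construct for the same mitochondrial ascorbate peroxidase. They were selected on measured values. For each gene, the mean of log2(FPKM + 1) over the 3 WT libraries was subtracted from the mean over the libraries of each other group, and a gene was taken when its difference was above 0.8 in anti-3 and below -0.8 in OX, or the reverse. The difference in each treated group also had to lie within 1.5 of WT on either side. FPKM are fragments scaled to gene length and library total, so levels can be compared between genes only roughly, and least well for very short genes. The rule took 13 of the 42635 features in the table. In 10 of them the level was raised in anti-3 and lowered in OX, and in 3 it was lowered in anti-3 and raised in OX. The selection fixes these directions and sizes, so they are given as a description and were not tested.

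The series holds mRNA sequencing of 15 libraries of suspension cells kept in the dark and collected on day 5 after subculture, with 3 libraries a group. WT cells carried no construct. The anti-3 cells were 1 antisense line of PtomtAPX (written PtomitAPX in the sample labels), so this arm rests on a single line. The OX cells carried PtomtAPX behind the 35S promoter, which drives strong expression in most plant cells, and were grown with the cytokinin 6-BA. The anti-3-A cells were anti-3 cells given 1 mM ascorbate (AsA) for 3 h, and the OX-H cells were OX cells given 10 mM H2O2 for 3 h. No treated WT cells and no mock treatment are among these libraries, so the treatment and the handling cannot be told apart, nor can the construct of OX and its 6-BA.

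Ascorbate peroxidases reduce H2O2 to water with ascorbate as the electron donor, and the mitochondrial enzyme acts where respiration releases H2O2. The antisense line was made to lower this activity and the overexpressed line to raise it, while AsA and H2O2 were added to shift the redox state of each line the other way. Calcium, a messenger in plant responses to H2O2, is sensed by calcium-binding proteins and pumped out of the cytosol by calcium-transporting ATPases. The features of the table could not be paired with PtomtAPX, so its own level is not given.

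**Figure D1:**
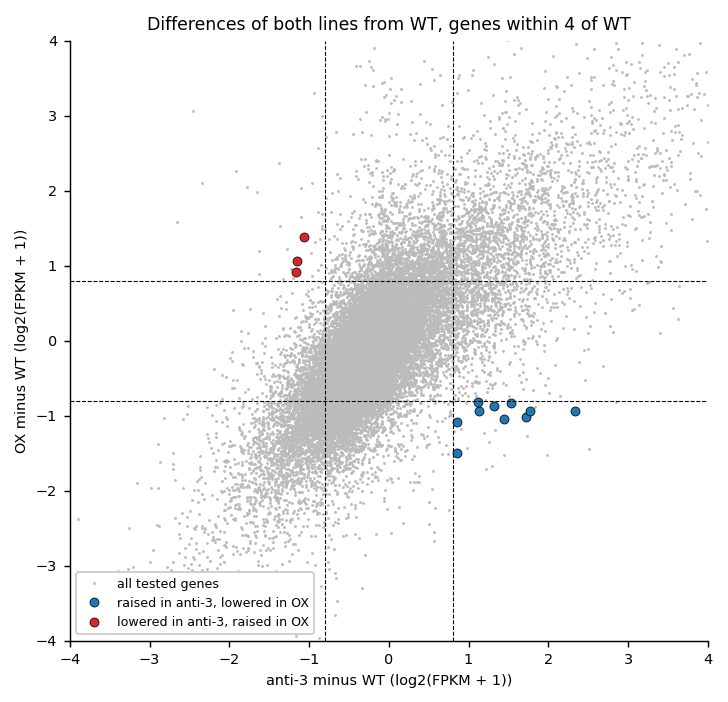
Each grey point is 1 of the 24694 tested genes, placed by its difference from WT in anti-3 (horizontal) and in OX (vertical), both on the log2(FPKM + 1) scale; genes farther than 4 from WT lie outside the frame. Dashed lines mark 0.8 on either side of WT, and the 10 blue and 3 red members lie in the lower right and upper left corners; both differences use the same 3 WT libraries.

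Library totals recovered from the steps of the FPKM values ran from 15618191 to 21278437 reads on genes, with a median of 17889817. Across the 24694 genes that reached FPKM 1 in at least 3 libraries, the median difference from WT was -0.26 in anti-3, 0.02 in anti-3-A, -0.18 in OX and -0.10 in OX-H on the log2(FPKM + 1) scale. The members' values below are not corrected for these shifts. All 13 members passed that filter, and all 13 reached FPKM 1 in every WT library, so none passed through the group where it was high.

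By FPKM, most members were weakly expressed. The 10 genes raised in anti-3 had mean WT levels from 1.71 to 14.9 FPKM with a median of 2.74, and the 3 genes lowered in anti-3 had 1.70, 2.52 and 6.65 FPKM, against a median of 8.71 FPKM over all tested genes. The bound on the treated groups kept the weaker genes. Without it, the median WT level was 4.25 FPKM over 27 genes raised in anti-3 and 7.02 FPKM over 34 lowered in anti-3. The low level is thus in part a product of the rule. The 10 genes held a median of 36.8 reads per WT library, where the median tested gene held 268. They were also short, with a median length of 501 bp against 1395 bp. Of the 13, 11 carried P. trichocarpa gene identifiers from 10 scaffolds and 2 carried identifiers of non-coding RNA genes. The GO (Gene Ontology) tables of the study list only its differentially expressed genes, and they annotated 4 of the 10 and 1 of the 3. Some entries were cut short in the copy used, so a member with no term here may be annotated in full.

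The rule sat close to many genes. Just inside the threshold of 0.8 among the genes raised in anti-3 were POPTR_0004s23010 with -0.82 and POPTR_0501s00200 with -0.83 in OX, and just outside were POPTR_0013s00720 with 0.799 in anti-3 and POPTR_0005s00390 with -0.79 in OX (log2 differences). Just inside the bound of 1.5 were POPTR_0016s01090 and POPTR_0501s00200, both at -1.48 in OX-H, and just outside were POPTR_0004s19640 at -1.502 and POPTR_0001s31250 at -1.512. For the other direction, the nearest gene inside the threshold was POPTR_0007s14870 with 0.92 in OX, and the nearest outside was POPTR_0005s11600 with -0.73 in anti-3. POPTR_0001s31630 came nearest to the bound from inside with 1.26 in OX-H, and POPTR_0002s09830 lay outside with 1.61.

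The bound removed more genes than it kept. Without it, 27 genes were raised in anti-3 and lowered in OX, and all 17 that it left out lay more than 1.5 below WT in OX-H, the side on which OX lay. In the other direction 34 genes passed without it. Of the 31 left out, 29 lay more than 1.5 above WT in OX-H and 5 lay more than 1.5 below WT in anti-3-A. The bound acts on the log2(FPKM + 1) scale, where a weak gene can lie within it and still hold few reads. In POPTR_0016s01090 the reads in OX-H were 0.0708 times (0.0457 to 0.105) those in WT.

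**Figure D2:**
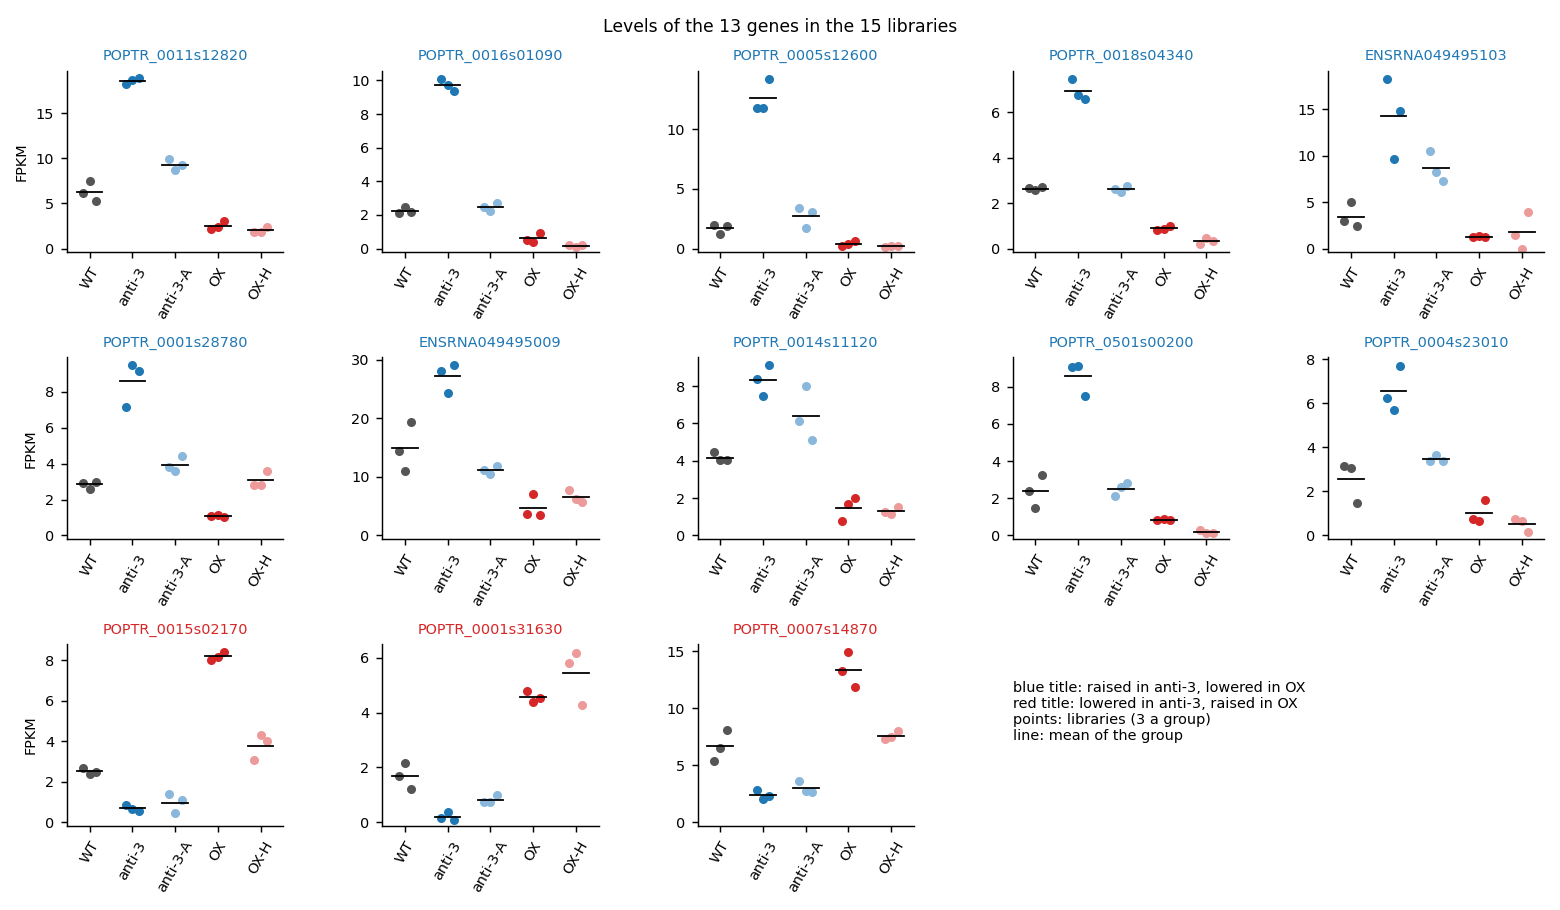
Each panel shows 1 member, with FPKM on a vertical axis from 0 and the 5 groups along the horizontal axis; points are the 3 libraries of a group and the line is their mean. In the 10 panels with blue titles every anti-3 point lies above every WT point, and in the 3 with red titles every OX point does.

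Among the annotated genes raised in anti-3, POPTR_0016s01090 carries the terms calcium-transporting ATPase activity and plasma membrane, the annotation of pumps that export calcium from the cytosol. Its level was 2.09, 2.49 and 2.16 FPKM in WT, 10.1, 9.74 and 9.38 in anti-3, and 0.481, 0.407 and 0.944 in OX. It was 2.45, 2.22 and 2.70 FPKM in anti-3-A and 0.218, 0.0728 and 0.190 in OX-H. The anti-3 libraries stood above all others, anti-3-A overlapped WT, and the OX-H libraries were the lowest of the 15. Summed over libraries and divided by the library totals, its reads in anti-3 were 4.32 times those in WT (95% exact interval 3.89 to 4.80), and in OX 0.274 times (0.221 to 0.338). Such intervals, here and for the members below, cover counting error only. The rule chose the genes on their differences from WT in anti-3 and OX, so the intervals test nothing. With 1771 reads in anti-3 and 441 in WT, this gene had the most reads among the 10.

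POPTR_0011s12820 is annotated with calcium ion binding, a term shared by calmodulin-like sensors and many other proteins. Its level was 6.14, 7.50 and 5.23 FPKM in WT, 18.2, 18.7 and 18.9 in anti-3, and 2.13, 2.35 and 3.06 in OX. In the treated cells it was 9.90, 8.68 and 9.22 FPKM in anti-3-A and 1.84, 1.79 and 2.40 in OX-H. Anti-3-A stood between WT and anti-3 without touching either, while OX-H and OX overlapped below WT. Its reads in anti-3 were 2.94 times (2.51 to 3.46) and in OX 0.398 times (0.304 to 0.518) those in WT.

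POPTR_0005s12600, annotated with ubiquitin-like protein transferase activity, the step that attaches ubiquitin or a related peptide to a target protein, had the farthest level in anti-3. It was at 2.01, 1.22 and 1.89 FPKM in WT and at 11.8, 11.8 and 14.2 in anti-3, a difference of 2.34 on the log2(FPKM + 1) scale. In OX it was at 0.206, 0.399 and 0.619 FPKM, which came from 4, 7 and 12 reads. In anti-3-A it was at 3.38, 1.75 and 3.10 FPKM, overlapping WT, and in OX-H it was at 0.128, 0.176 and 0.223. The read ratio to WT was 7.48 (6.08 to 9.29) in anti-3 and 0.241 (0.146 to 0.382) in OX.

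POPTR_0004s23010 carries the terms transcription, DNA-templated and regulation of cellular biosynthetic process. Its level was 3.16, 3.08 and 1.46 FPKM in WT, 6.25, 5.68 and 7.71 in anti-3, and 0.737, 0.651 and 1.62 in OX. It was the only member of the 10 whose OX and WT libraries overlapped, through WT replicate 3 and OX replicate 3. In anti-3-A it was at 3.38, 3.66 and 3.38 FPKM and in OX-H at 0.730, 0.670 and 0.159, the last from 1 read.

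POPTR_0018s04340 was the first of the members with no annotation in the tables used. Its level was 2.65, 2.57 and 2.70 FPKM in WT, 7.48, 6.77 and 6.60 in anti-3 and 0.838, 0.867 and 0.994 in OX. After treatment it was at 2.64, 2.48 and 2.75 in anti-3-A and 0.194, 0.476 and 0.339 in OX-H. The anti-3-A libraries covered the WT range, with a difference from WT of -0.01 on the log2(FPKM + 1) scale. POPTR_0501s00200 had much the same order of groups at lower counts. It was at 2.38, 1.48 and 3.23 FPKM in WT, 9.04, 9.12 and 7.51 in anti-3 and 0.815, 0.900 and 0.815 in OX. In treated cells it was at 2.14, 2.63 and 2.80 in anti-3-A and 0.288, 0.132 and 0.126 in OX-H, the last group holding 4 reads in all.

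POPTR_0014s11120 and POPTR_0001s28780 differed from these in the treated cells. POPTR_0014s11120 was at 4.45, 4.03 and 4.02 FPKM in WT, 8.40, 7.48 and 9.12 in anti-3 and 0.761, 1.68 and 2.03 in OX. After treatment it was at 6.11, 8.01 and 5.12 in anti-3-A and 1.26, 1.15 and 1.51 in OX-H. Its anti-3-A libraries were all above WT and 1 of them overlapped anti-3. POPTR_0001s28780 was at 2.93, 2.60 and 2.98 FPKM in WT, 7.17, 9.48 and 9.14 in anti-3 and 1.05, 1.16 and 1.05 in OX. In treated cells it was at 3.80, 3.57 and 4.44 in anti-3-A and 2.80, 2.82 and 3.58 in OX-H. Its OX-H libraries were back among and above the WT libraries, which was the case for no other of the 10 except ENSRNA049495103, where 1 OX-H library reached the WT range.

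The remaining pair were short non-coding RNA genes. ENSRNA049495009, 196 bp long, was at 14.4, 11.0 and 19.3 FPKM in WT, 28.1, 24.3 and 29.1 in anti-3 and 3.69, 6.99 and 3.43 in OX. After treatment it was at 11.2, 10.4 and 11.8 in anti-3-A and 7.84, 6.30 and 5.70 in OX-H. Its anti-3-A libraries overlapped WT and its OX-H libraries overlapped OX. ENSRNA049495103 is 85 bp long, shorter than the fragments size-selected for the libraries. It was at 2.96, 4.98 and 2.41 FPKM in WT, 18.3, 9.67 and 14.8 in anti-3 and 1.22, 1.34 and 1.22 in OX. In treated cells it was at 10.5, 8.24 and 7.31 in anti-3-A and 1.51, 0 and 3.95 in OX-H. These came from 5, 9 and 4 reads in WT and 2 reads in each OX library, so its OX to WT read ratio of 0.360 had a 95% exact interval from 0.117 to 0.946.

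The opposite pattern was found in 3 genes. POPTR_0015s02170 carries terms for regulation of transcription, DNA-templated. Its level was 2.70, 2.41 and 2.47 FPKM in WT, 0.873, 0.638 and 0.563 in anti-3, and 8.03, 8.16 and 8.39 in OX. It was 1.38, 0.453 and 1.10 FPKM in anti-3-A and 3.08, 4.29 and 3.99 in OX-H. The OX libraries stood above all others, OX-H lay between WT and OX, and anti-3-A overlapped anti-3 below WT. The read ratio to WT was 0.273 (0.196 to 0.374) in anti-3 and 3.25 (2.76 to 3.84) in OX.

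POPTR_0001s31630, with no annotation in the tables used, was nearly silent in anti-3. It was at 1.69, 2.17 and 1.23 FPKM in WT, 0.171, 0.374 and 0.0771 in anti-3 (2, 4 and 1 reads) and 4.78, 4.37 and 4.53 in OX. After treatment it was at 0.758, 0.744 and 0.991 FPKM in anti-3-A and 5.82, 6.18 and 4.28 in OX-H. It was the 1 member of the 3 whose mean was no lower in OX-H than in OX. POPTR_0007s14870, also with no annotation there, was at 5.35, 6.52 and 8.07 FPKM in WT, 2.82, 2.08 and 2.31 in anti-3 and 13.2, 14.9 and 11.8 in OX. After treatment it was at 3.63, 2.75 and 2.67 in anti-3-A and 7.29, 7.46 and 7.99 in OX-H. Its OX-H libraries lay within the WT range.

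Libraries of anti-3 and WT did not overlap in 10 of 10 genes raised in anti-3, where 24.2% of all tested genes lay higher without overlap, and in 3 of 3 lowered in anti-3, where 52.6% lay lower. Libraries of OX and WT did not overlap in 9 of the 10, against 47.4% lower over all tested genes, and in 3 of the 3, against 32.5% higher. The rule used both contrasts, so nothing is read from these counts.

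**Figure D3:**
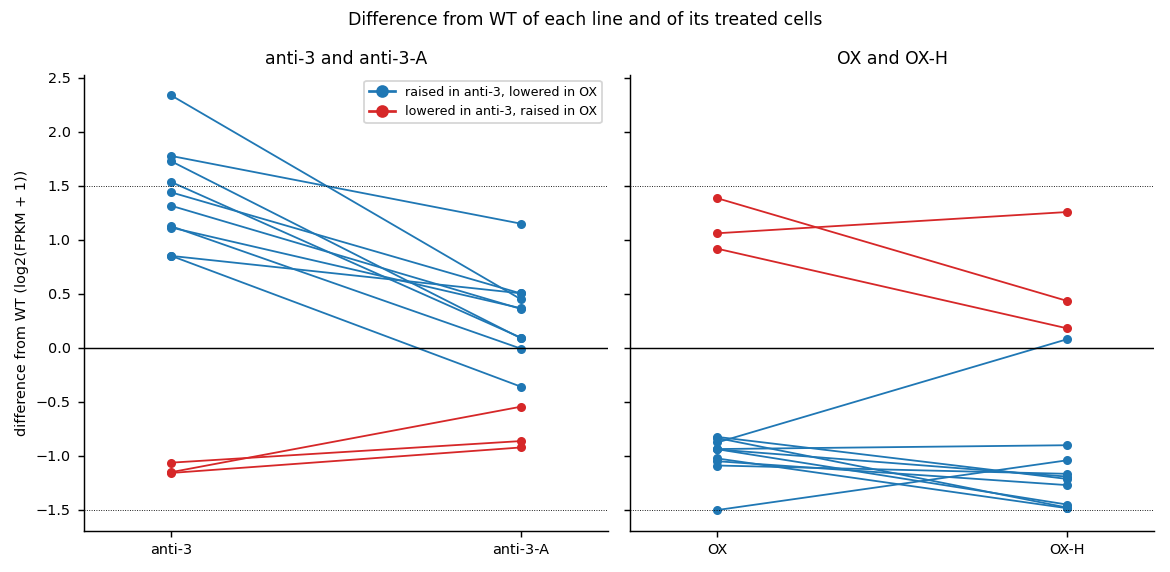
Each line is 1 member, joining its difference from WT on the log2(FPKM + 1) scale in the untreated line to that in the treated cells, for anti-3 and anti-3-A on the left and for OX and OX-H on the right. Dotted lines mark the bound of 1.5; the blue lines draw in towards 0 on the left, while on the right 7 of the 10 move away from it.

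With AsA, the 10 genes raised in anti-3 lay nearer to WT. On the log2(FPKM + 1) scale their median difference from WT was 1.38 in untreated and 0.36 in AsA-treated cells, and all 10 were nearer to WT in anti-3-A, 8 of them still on the side of anti-3. Libraries of anti-3-A lay below those of anti-3 without overlap in 8 of the 10, against 24.5% of all tested genes. The median of anti-3-A minus anti-3 was 0.27 over all tested genes and -1.04 over the 10 (log2). Against WT, anti-3-A was higher without overlap in 5 of the 10 (25.9% of all tested genes). The rule chose these genes for a high level in anti-3, and its bound required a nearer level in anti-3-A of the 4 genes above 1.5 in anti-3, so these values are a description.

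The reads behind the same FPKM values gave the same order on a linear scale. The ratio of anti-3-A to anti-3 was below 1 in all 10 genes, from 0.216 (95% exact interval 0.179 to 0.259) in POPTR_0005s12600, 0.253 (0.226 to 0.282) in POPTR_0016s01090 and 0.297 (0.218 to 0.399) in POPTR_0501s00200 to 0.764 (0.608 to 0.956) in POPTR_0014s11120. All 10 intervals lay below 1, but they cover counting error only. The rule chose these genes for a high level in anti-3, so no test is read from them. The 3 genes lowered in anti-3 are given apart. Their median lay -1.15 from WT without AsA and -0.86 with it (log2), with all 3 still lower than WT without overlap, against 22.5% of all tested genes. Only POPTR_0001s31630 was higher in anti-3-A than in anti-3 without overlap, where 52.6% of all tested genes were, with a read ratio of 4.21 (1.79 to 11.5) from 27 and 7 reads.

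With H2O2, the mean of 7 of the 10 genes lowered in OX lay farther below WT, but the libraries of OX and OX-H overlapped in 4 of these 7. The median difference of the 10 from WT was -0.94 in OX and -1.20 in OX-H on the log2(FPKM + 1) scale. In 3 of the 10 the mean of OX-H lay nearer to WT than that of OX, namely POPTR_0001s28780, ENSRNA049495009 and ENSRNA049495103. The bound required this of ENSRNA049495009, which lay at -1.501 in OX. Libraries of OX-H lay below those of OX without overlap in 3 of the 10, POPTR_0016s01090, POPTR_0018s04340 and POPTR_0501s00200, a share equal to the 30.0% found over all tested genes. Against WT, OX-H was lower without overlap in 8 of the 10 (43.0% of all tested genes). The bound left out the 17 genes of this direction that lay more than 1.5 below WT in OX-H, so these values are a description.

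Counts were small in these libraries. The ratio of summed reads in OX-H to OX was 0.258 (0.162 to 0.398) in POPTR_0016s01090, from 26 and 112 reads, 0.378 (0.204 to 0.667) in POPTR_0018s04340 and 0.212 (0.0529 to 0.628) in POPTR_0501s00200. In POPTR_0005s12600 it was 0.435 (0.177 to 0.976), though the libraries of the 2 groups overlapped. These intervals cover counting error only, and in POPTR_0011s12820, POPTR_0014s11120, POPTR_0004s23010 and both non-coding RNA genes they spanned 1. POPTR_0001s28780 lay on the other side, with reads 2.83 times (1.97 to 4.15) those in OX and no overlap between libraries, where 44.0% of all tested genes were higher.

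Of the 3 genes raised in OX, POPTR_0015s02170 and POPTR_0007s14870 were lower in OX-H than in OX without overlap, as 30.0% of all tested genes were, with read ratios of 0.465 (0.399 to 0.540) and 0.572 (0.515 to 0.634). POPTR_0001s31630 had a ratio of 1.18 (0.947 to 1.47). The median difference from WT of the 3 was 1.06 in OX and 0.43 in OX-H (log2). Without the bound the order was the other way: over the 34 genes that passed both thresholds, the median was 1.52 in OX and 2.54 in OX-H, and 28 of the 34 lay farther from WT in OX-H. No share over all tested genes was counted for this order, so the 28 are a description. Among the 3, OX-H was higher than WT without overlap in 2 of 3, against 31.1% of all tested genes.

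**Figure D4:**
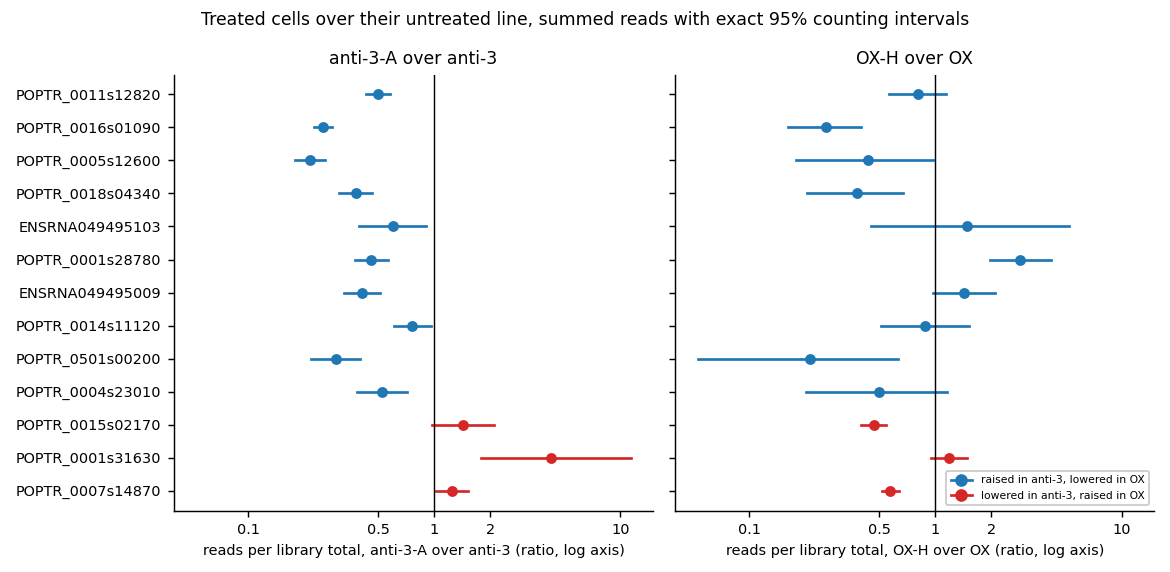
Points give, for each member, the summed reads in treated cells over those in the untreated line, each divided by the library totals, on a log axis, with AsA-treated anti-3 on the left and H2O2-treated OX on the right; bars are exact 95% intervals and cover counting error only. All 10 blue bars on the left end below 1, while on the right the bars of 5 blue members cross 1. The rule chose the blue members for a high level in anti-3, so the bars are a description.

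The treated groups can also be set against each other. The rule used both of them through its bound, and they are cells of the same lines between which the members were chosen to differ. OX-H minus anti-3-A is therefore a description. Its limma errors, intervals and calls for the members are given for size only and are not read as a test. The difference combines the constructs, the treatments and 6-BA, which cannot be told apart. All 10 genes raised in anti-3 were lower in OX-H, all 3 genes lowered in anti-3 were higher, and the same held for 27 of 27 and 34 of 34 genes without the bound. The limma fit over all 24694 genes, with Benjamini-Hochberg adjustment, placed 42.4% of all tested genes lower and 28.6% higher in OX-H at an adjusted p below 0.05, with a median difference of -0.13 (log2).

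The study's methods call a gene differentially expressed (a DEG) past 1.5 in absolute log2 fold change at a corrected p below 0.001. Its results give the 1.5 as a fold change, a looser limit, and which one made its lists is not settled. The log2 limit is used here. In the limma fit 2.56% of all tested genes passed these limits lower in OX-H and 4.28% higher. Among the members 7 of the 10 passed them lower and 1 of the 3 higher, from which nothing is read because the rule used these values. With library medians aligned or with quantile normalization 4 of the 10 passed, and POPTR_0016s01090, POPTR_0501s00200 and POPTR_0004s23010 did not, at -1.47 to -1.44. The 10 genes had a median difference of -1.58 and the 3 of 1.30 on the log2(FPKM + 1) scale. Libraries of the treated groups did not overlap in 9 of the 10 (43.5% lower over all tested genes) and in 3 of the 3 (29.5% higher).

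The calcium ion binding gene POPTR_0011s12820, at 9.26 ± 0.61 FPKM in anti-3-A and 2.01 ± 0.34 in OX-H (SD, n = 3), differed by -1.77 (SE 0.12). The calcium-transporting ATPase gene POPTR_0016s01090, at 2.45 ± 0.24 and 0.160 ± 0.077 FPKM, differed by -1.57 (SE 0.12). On the linear scale the reads in OX-H were 0.218 times (0.161 to 0.292) and 0.0649 times (0.0419 to 0.0964) those in anti-3-A. The log2(FPKM + 1) scale understates such differences in genes this low.

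The ubiquitin-like transferase gene POPTR_0005s12600 differed by -1.64 (SE 0.17), POPTR_0014s11120 by -1.67 (SE 0.17) and POPTR_0501s00200 by -1.57 (SE 0.15). The transcription gene POPTR_0004s23010 differed by -1.58 (SE 0.22), and by -1.40, short of a DEG, without OX-H replicate 3. ENSRNA049495103 had the farthest difference and the widest error, -2.05 (SE 0.40), from 8 reads in OX-H and 38 in anti-3-A. Without OX-H replicate 2, which held no read of it, the difference was -1.45 and it no longer passed the DEG limits, nor did it without anti-3-A replicate 1 or 2. These calls describe size only and test nothing, because the rule used both treated groups.

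The other 3 of the 10 were short of the DEG thresholds, which again serve only to describe size. POPTR_0018s04340 differed by -1.44 (SE 0.10), so that its fold change alone fell short, and without OX-H replicate 2 it passed with -1.52. ENSRNA049495009 differed by -0.68 (SE 0.20). POPTR_0001s28780 had the smallest difference, -0.28 (SE 0.11), and was the 1 gene of the 10 whose treated libraries overlapped. With library medians aligned it differed by -0.17.

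Among the genes raised in OX, POPTR_0001s31630 was the 1 past the DEG limits, at 0.831 ± 0.139 FPKM in anti-3-A and 5.43 ± 1.01 in OX-H, a difference of 1.80 (SE 0.14). The transcription regulation gene POPTR_0015s02170 differed by 1.30 (SE 0.15) and POPTR_0007s14870 by 1.10 (SE 0.13). Their reads in OX-H were 6.48 times (4.30 to 10.1), 3.90 times (2.96 to 5.21) and 2.53 times (2.16 to 2.96) those in anti-3-A. For these 3 genes too, the calls and errors are a description and not a test.

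**Figure D5:**
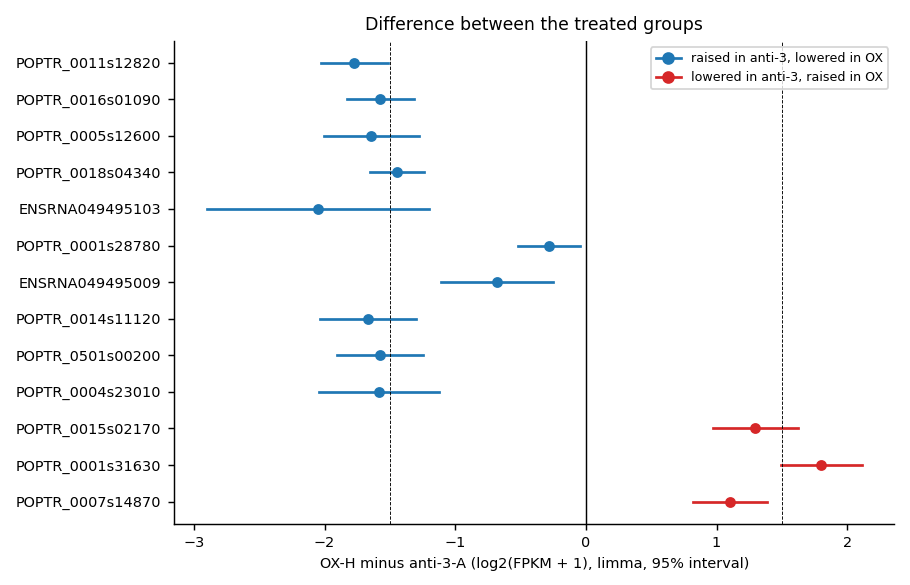
Each row is 1 member, with the limma difference of OX-H minus anti-3-A on the log2(FPKM + 1) scale as a point and its 95% interval as a bar. The bars are a description, because the rule used both groups. Dashed lines mark 1.5 on either side of 0; the 10 blue members lie left of 0, from -2.05 to -0.28, and the 3 red members right of it, from 1.10 to 1.80.

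The oppositely moved genes were not those the study's text names. That list of 15 genes, chosen by the study on these samples, holds UDP-glycosyltransferases, which attach sugars to small molecules, phosphatases, pyrophosphatases, cytokinin-activating phosphoribohydrolases, a phosphatidylinositol phosphate kinase and a galactosidase. None of the 15 had opposite signs in anti-3 and OX, on values not corrected for the shift of all genes. The share of all tested genes with opposite signs was not counted. With limma, 9 of the 15 were DEGs lower in anti-3 than in WT, where 2.60% of all tested genes were lower DEGs and 5.59% higher. In OX, 7 were DEGs lower than in WT and 1 higher, against 5.04% and 6.50%. In OX-H against anti-3-A, 2 of them were lower DEGs and 1 was a higher DEG, against 2.56% and 4.28% of all tested genes. The study named these genes for their changes in these same libraries, possibly at a looser limit, so nothing is read from these counts.

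Single genes of that list show the contrast. The phosphoribohydrolase gene POPTR_0004s22210 had differences from WT of -2.93 in anti-3 and -4.57 in OX, and the phosphatase gene POPTR_0014s08130 of -3.90 and -2.38 (log2). The inorganic pyrophosphatase gene POPTR_0006s08250 was the 1 gene above WT in both lines, by 1.11 and 1.62. Both lines thus lay on 1 side of WT in every gene of that list, by differences not corrected for the shift of all genes. In OX, the UDP-glycosyltransferase genes POPTR_0006s02390 and POPTR_0545s00210 lay only -0.10 and -0.19 from WT (log2). The median over all tested genes was -0.18, so the side of WT is not settled for them. The 13 members lay on opposite sides, which the rule required of them.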

How the data were processed

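Features were quantified in 15 libraries as FPKM by the authors, and the deposited table holds these FPKM values per feature and library. The paper's methods name SOAPaligner/SOAP2 against P. trichocarpa, and the submitters' processing notes name TopHat2 2.0.12, Bowtie2 2.2.3 and HTSeq 0.6.1; genome release, annotation, strand and the treatment of reads shared by related genes were not given in the sources used here. Deposited tables of the authors' own comparisons (fold changes and p-values) were not used. Whole reads per gene were recovered from the FPKM steps (100.0% of 445124 values above 0 whole within 0.0001 reads), giving totals of 15618191 to 21278437. Exact 95% intervals of read ratios cover counting error only.

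The members, lists and tests were chosen with earlier results of these data known. Differences are means of log2(FPKM + 1) minus WT. All tested genes were fitted with limma 3.58.1 in R 4.3.3 (trend, all 15 libraries in 1 fit), on genes that reached FPKM 1 in 3 or more libraries, adjusted by Benjamini-Hochberg over 24694 genes, after the fit was tested on simulated data. The rule used every group, so the members' values are descriptions, also in OX-H against anti-3-A. The labels do not say whether libraries of a group came from separate cultures, so p-values measure only the spread between these libraries. Named genes were, in each direction, up to 8 annotated and 2 unannotated members farthest from WT in both lines, up to 2 per GO group with 3 or more members (no group had so many), those with the extreme OX-H to anti-3-A differences, and the study's 15 named genes; the other members were named after their values were seen, to account for all 13. Group names follow the labels. Alternatives were other pseudocounts, scalings, filters, thresholds, models and the omission of each library.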

Additional observations from a re-analysis of the deposited data

How the results depend on the processing

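Which genes were members depended on the settings. With a pseudocount of 0.1 the rule took 48 genes raised in anti-3 (2 of the 10 among them) and 31 lowered (2 of the 3), and with 0.5 it took 18 and 7; every member lost lay past the bound of 1.5. The threshold of 1.0 kept 2 of the 10, that of 0.6 took 39 and 26, the bound of 1.0 kept 1, and no bound gave 27 and 34. With library medians aligned 4 of the 10 were kept, and with quantile normalization 6, those lost all at the threshold of 0.8; the 3 were kept by both. Leaving out 1 library gave 10 to 15 and 3 to 5 genes, 5 without WT replicate 2 or anti-3 replicate 1. No member's difference from WT in anti-3 or OX changed sign.

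In OX-H against anti-3-A no member changed direction. The members' values below show how far the fit moved with the settings and are not read as a test. POPTR_0001s28780, at a limma adjusted p of 0.0355, was at 0.188 with medians aligned, 0.195 with quantile normalization, 0.159 with limma-voom, 0.0538 with no filter and 0.0656 with only the 6 libraries compared, and at 0.013 to 0.147 with 1 library left out (above 0.05 without anti-3-A replicate 1 or 3 or OX-H replicate 1 or 2). DEGs among the 10 fell from 7 to 4 with medians aligned or quantile normalization. Among the 3 there were 2 with pseudocounts of 0.1 or 0.5 or limma-voom on whole reads, 0 of the 2 tested with FPKM of at least 5, and 3 at adjusted p below 0.05 with no fold threshold. Over all genes the 1688 DEGs became 2812 with a pseudocount of 0.1, 2877 with limma-voom and 17521 at adjusted p below 0.05. Leaving out 1 library gave 6 to 7 and 1 to 1 member DEGs, and 1659 to 1750 overall.

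The replicate numbers did not pair the libraries of OX-H with those of anti-3-A (correlation of deviations -0.03 to 0.05). Pairing between other groups was not examined. In OX-H against anti-3-A the replicate block left 7 and 1 member DEGs and changed the total to 1687.

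The medians over the 10 moved to 0.48 in anti-3-A and -2.09 in OX-H with a pseudocount of 0.1, to -1.51 in OX-H with 0.5 and to -1.10 with medians aligned, and between OX-H and anti-3-A to -2.70, -1.99, -1.46 and, with quantile normalization, -1.47. Over the 3 they moved to -1.11 in anti-3-A with 0.1, and between the treated groups to 1.95 with 0.1 and 1.58 with 0.5. Leaving out 1 library gave 0.31 to 0.44, -1.30 to -1.12 and -1.62 to -1.53 over the 10, and -1.01 to -0.66, 0.36 to 0.54 and 1.09 to 1.45 over the 3. Low read counts limit these genes most in OX-H, where 4 to 107 reads stood behind the levels of the 10.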

Other observations

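Genes that met both thresholds with or without the bound showed the same order of the treated groups. Without the bound, OX-H lay below anti-3-A in 27 of 27 genes raised in anti-3 and above it in 34 of 34 genes lowered in anti-3. Anti-3-A lay nearer to WT than anti-3 in 26 of the 27 and 24 of the 34, and OX-H lay farther from WT than OX in 23 and 28. Their median differences from WT on the log2(FPKM + 1) scale were 1.31 in anti-3, 0.07 in anti-3-A, -1.09 in OX and -1.52 in OX-H for the 27, and -1.13, -0.83, 1.52 and 2.54 for the 34. Over all tested genes the medians were -0.26 in anti-3, 0.02 in anti-3-A, -0.18 in OX and -0.10 in OX-H. The share of all tested genes showing each order was not counted. The counts above hold the 13 members, and the genes were taken by the same contrasts. They are therefore a description, from which nothing is read about these genes in particular.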
